A study of Mus musculus with 6 samples.

Results

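Matricellular proteins are the subject here, described through the genes *Spp1*, *Tnc*, *Thbs1*, *Thbs2*, *Postn*, *Sparc*, *Sparcl1*, *Fn1*, *Tgfbi* and *Smoc2*. They were chosen by gene symbol from a named list, and all 10 were found among the 20327 symbols of the tag-count table. RNA came from stromal cells of the inflamed mouse colon, sorted by a reporter for the cytokine IL-11. The comparison asks how cells with the reporter signal, called IL-11+ (EGFP-Positive), differ from cells without it, called IL-11- (EGFP-Negative), with 3 libraries in each group. Both groups came from male *Il11-Egfp* mice of strain C57BL/6, aged 9 to 15 weeks. The mice drank 1.5% dextran sulfate sodium (DSS), which injures the colonic epithelium, for 5 days and then plain water, and their colons were taken on day 7. In both groups the sorted cells were DAPI-negative, that is with intact membranes, and lacked the lineage markers Ter119, EpCAM, CD31 and CD45. The reporter is a bacterial artificial chromosome transgene that drives *Egfp* from the *Il11* promoter in a transgenic line, so EGFP stands for promoter activity and not for secreted protein. The IL-11- cells are from DSS-treated mice as well, and no untreated group was analysed here. The methods name 3 mice for this experiment, but the labels do not tie a library to a mouse, so the p-values measure the spread between these libraries.

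Matricellular proteins are secreted into the extracellular matrix, where they bind cells, growth factors and other matrix proteins and so adjust adhesion, migration and repair more than they bear mechanical load. Many are scarce in resting adult tissue and become abundant at sites of injury and inflammation. In the intestine, fibroblasts and smooth muscle cells of the wall are among their main sources. Fibronectin, encoded by *Fn1*, is also a structural part of the matrix.

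Each library was read by 5′Tag-seq, which counts short tags from the 5′ side of polyadenylated transcripts. Library values are always given in the order of replicates 1, 2 and 3. The IL-11- libraries hold 1057170, 1078179 and 1169817 tags, and the IL-11+ libraries hold 1046538, 1022851 and 1049048 tags. Genes with 10 or more tags in 3 or more of the 6 libraries were tested, which held for 9334 genes, all 10 matricellular genes among them. Normalized CPM are tag counts scaled to the tags of the tested genes in a library and corrected by TMM factors, which allow for a few abundant genes taking up a library. Calls required a fold change over 2 and an adjusted p under 0.05 in the edgeR quasi-likelihood test, with p-values adjusted over all tested genes by the Benjamini-Hochberg method. *Il11*, as a check of the sort, had 28, 51 and 89 tags in the IL-11- libraries and 1357, 732 and 2658 tags in the IL-11+ libraries. Its transcript was thus low but present in every IL-11- library, and the groups did not overlap.

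The matricellular genes moved in different directions. *Spp1* and *Tnc* rose in IL-11+ cells, *Smoc2* fell, and the other 7 were not called. These 2 genes higher and 1 gene lower, of 10, stand beside 3.44% higher and 6.37% lower among all tested genes. By the adjusted p alone, with no fold threshold, 3 of the 10 were higher and 5 were lower, against 6.84% and 8.7% of all tested genes. The libraries of the groups did not overlap for 3 genes that were higher and 5 that were lower, against 14.5% and 16.7% of all tested genes. The median log2 fold change of all tested genes was -0.01. *Spp1* is among the higher genes in each count above. It passed the filter through its IL-11+ libraries alone, so it could be tested only if it differed. For this reason no median of the 10 genes is given. These counts describe the 10 genes, and no list test was made. The calls are from the fit without a replicate block. With libraries blocked by replicate number, *Thbs2* was called lower as well. In bulk RNA, fewer cells of one kind and less RNA per cell cannot be told apart for any of these differences.

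**Figure D1:**
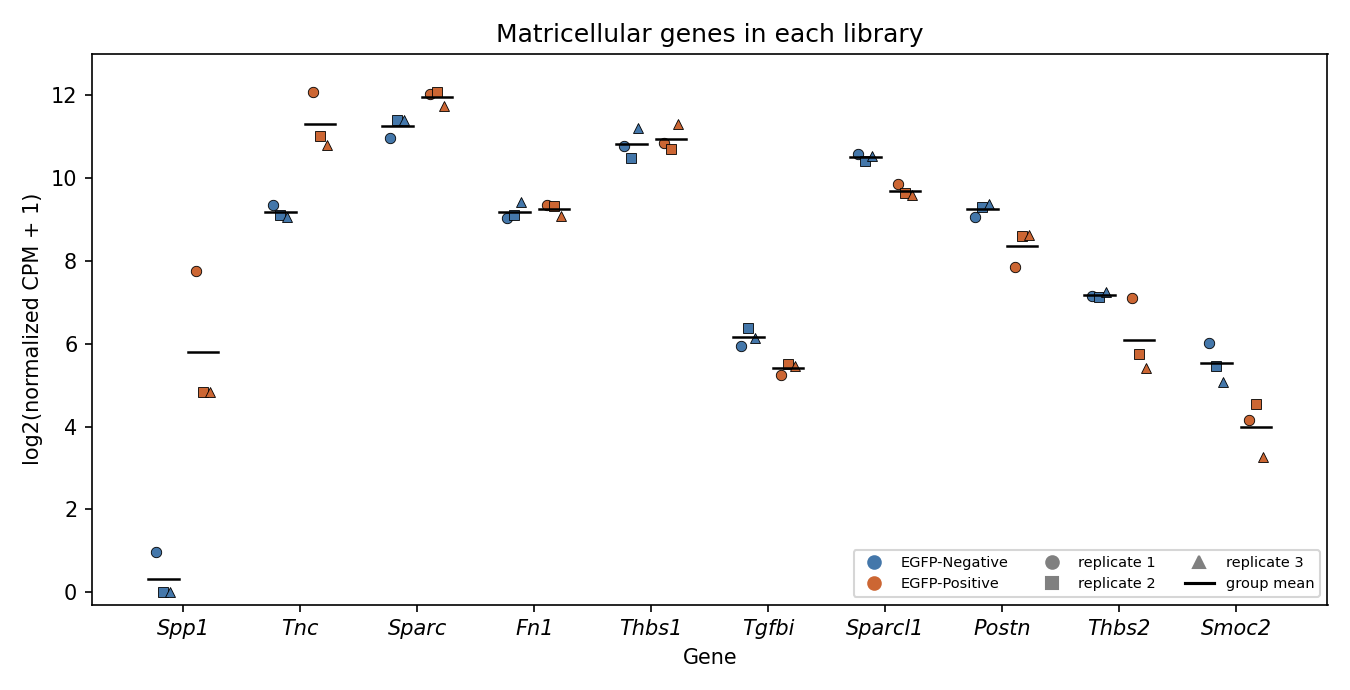
Level of the 10 matricellular genes in each library, as log2 of normalized CPM plus 1 (vertical axis). Circles, squares and triangles are replicates 1, 2 and 3, blue is EGFP-Negative (IL-11-), orange is EGFP-Positive (IL-11+), and the black bar is the mean of 3 libraries. *Spp1* had 1 tag in all IL-11- libraries together, and the symbols of *Thbs1* and of *Fn1* overlap between groups.

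*Spp1* encodes osteopontin, a secreted phosphoprotein that binds integrins and CD44 and acts on immune cells and mineralized matrix. The IL-11- libraries held 1, 0 and 0 of its tags, and the IL-11+ libraries 203, 27 and 29. Replicate 1 of IL-11+ stood far above the other IL-11+ libraries, and each of these was above every IL-11- library. The groups held 1 and 259 tags, which after scaling is a 289.4-fold ratio with a 95% counting interval of 51.5 to 11470 (exact binomial). Without IL-11+ replicate 1 the ratio was 91.6-fold, with an interval of 15.8 to 3682. Such intervals reflect counting error alone and leave out the spread between libraries. PCR copies of a molecule are counted as separate tags, so the intervals may be too narrow even for counting error. In the edgeR quasi-likelihood test the Benjamini-Hochberg adjusted p was 9.56e-05, and all 3 IL-11+ libraries were higher. *Spp1* passed the filter through its IL-11+ libraries alone, so a gene with these low IL-11- counts could be tested only if it differed. With an IL-11+ library left out and the filter applied to the other 5 libraries, it was under the filter.

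Macrophages are a well-known source of osteopontin, so the leukocyte markers are given beside *Spp1*. Of 16 listed markers, 15 were in the table and 1 was tested, *Cd14*, a receptor for bacterial lipopolysaccharide, which rose with a log2 fold change of 2.22 (edgeR quasi-likelihood test, Benjamini-Hochberg adjusted p = 0.00239). *Cd14* was also the most abundant of them. The markers summed to 33.4, 45.2 and 32.8 normalized CPM in the IL-11- libraries and to 85.9, 52.8 and 29.6 in the IL-11+ libraries, so the groups overlapped. Beside *Cd14*, only *Cd68* and *S100a8* reached 10 tags in a library, and the groups overlapped for every marker but *Cd14*. The IL-11- libraries held 1, 2 and 7 tags of *Ptprc* (CD45) and the IL-11+ libraries 0, 3 and 0, and *Lyz2* had 5, 8 and 2 against 4, 0 and 0. *Cd68*, a lysosomal protein of macrophages, had 10, 3 and 4 tags in the IL-11- libraries against 7, 8 and 4. *S100a8*, a protein of neutrophils and monocytes, had 2, 4 and 2 tags against 13, 1 and 12, and its partner *S100a9* had 1, 0 and 4 against 9, 4 and 0. The part of these markers in the higher *Spp1* was not tested. Near the 5′ end of its transcripts, 29.5% of the 50-base windows of *Spp1* also occur in the annotated gene *Gm42793*, which was not analysed here, so the origin of part of its tags is less certain. None of the other 9 genes shared such a window.

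*Tnc* encodes tenascin-C, a large hexameric glycoprotein that counters adhesion to fibronectin and appears in wounds. It had 683, 587 and 647 tags in the IL-11- libraries and 4064, 2051 and 1865 tags in the IL-11+ libraries. The lowest IL-11+ library was well above the highest IL-11- library, and IL-11+ replicate 1 was again the highest. The mean rose from 578.8 ± 64.4 to 2723 ± 1381 normalized CPM (n = 3, SD), and the log2 fold change was 2.23 (95% interval 1.68 to 2.79, edgeR quasi-likelihood test, Benjamini-Hochberg adjusted p = 8.32e-06). Over all alternative settings and with each library left out, the log2 fold change lay between 1.75 and 2.47 and the call was kept.

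*Smoc2* encodes a secreted calcium-binding protein of the SPARC family that modulates growth factor signals. It had 67, 46 and 40 tags in the IL-11- libraries and 16, 22 and 9 tags in the IL-11+ libraries. These are among the lowest counts of the 10 genes, and the groups did not overlap. The mean fell from 46.7 ± 15.8 to 16.0 ± 6.93 normalized CPM (n = 3, SD), and the log2 fold change was -1.54 (95% interval -2.25 to -0.84, edgeR quasi-likelihood test, Benjamini-Hochberg adjusted p = 0.0031). The call was kept with each library left out, with values from -1.87 to -1.23.

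*Sparc* and *Sparcl1* encode a pair of related collagen-binding proteins, osteonectin and hevin, that guide how collagen fibrils assemble. *Sparc* had 2096, 2893 and 3293 tags in the IL-11- libraries and 3983, 4262 and 3571 tags in the IL-11+ libraries. Every IL-11+ library was above every IL-11- library, by a margin smaller than the spread within IL-11-. Its log2 fold change was 0.69 (95% interval 0.30 to 1.07), under the fold threshold, with a Benjamini-Hochberg adjusted p of 0.0152 in the edgeR quasi-likelihood test. That adjusted p (edgeR quasi-likelihood test, Benjamini-Hochberg) was over 0.05 without IL-11- replicate 1 (0.14), without IL-11- replicate 2 (0.0636, but 0.0492 on the genes kept with all 6 libraries) and without IL-11+ replicate 2 (0.0796).

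*Sparcl1* went the other way, with 1619, 1437 and 1808 tags in the IL-11- libraries and 873, 781 and 809 tags in the IL-11+ libraries. The libraries within each group lay close together and the groups were far apart. The mean was 1461 ± 98.1 and 829.9 ± 83.3 normalized CPM (n = 3, SD), and the log2 fold change was -0.82 (95% interval -1.16 to -0.47, edgeR quasi-likelihood test, Benjamini-Hochberg adjusted p = 0.00172), under the fold threshold. Within a library, the ratio of *Sparc* to *Sparcl1* tags does not depend on how libraries are scaled. It ranged from 1.29 to 2.01 in IL-11- and from 4.41 to 5.45 in IL-11+. On the log2 scale the ratio was 1.51 higher in IL-11+ (0.75 ± 0.33 against 2.26 ± 0.17, SD, n = 3, two-sided exact permutation p = 0.1, the smallest that 3 libraries against 3 can give).

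*Thbs1* and *Thbs2* encode trimeric thrombospondins, which bind CD36 and CD47 and restrain the growth of vessels, and thrombospondin-1 also activates latent TGF-beta. *Thbs1* had 1833, 1519 and 2894 tags in the IL-11- libraries and 1745, 1641 and 2666 tags in the IL-11+ libraries. The groups overlapped, and replicate 3 was the highest in both. Its log2 fold change was 0.12 (95% interval -0.31 to 0.56, edgeR quasi-likelihood test, Benjamini-Hochberg adjusted p = 0.768). Without a block the sign depended on single libraries, with -0.04 without IL-11- replicate 2 and -0.07 without IL-11+ replicate 3. Such a fit splits a pair of libraries of the same number, and whether this turned the sign was not tested. Within the 3 pairs *Thbs1* was higher in IL-11+ each time, with log2 ratios of 0.08, 0.22 and 0.10. When libraries were blocked by replicate number, its log2 fold change was 0.13 (edgeR quasi-likelihood test, Benjamini-Hochberg adjusted p = 0.553).

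*Thbs2* had 148, 147 and 184 tags in the IL-11- libraries and 128, 52 and 44 tags in the IL-11+ libraries. IL-11+ replicate 1 lay close to the IL-11- libraries and the other IL-11+ libraries lay far lower, so the groups did not overlap, by a narrow margin. The mean was 143.6 ± 6.61 and 76.8 ± 51.3 normalized CPM (n = 3, SD), and the log2 fold change was -0.91 (95% interval -1.52 to -0.31, edgeR quasi-likelihood test, Benjamini-Hochberg adjusted p = 0.0383). When libraries were blocked by replicate number, *Thbs2* passed both thresholds at a log2 fold change of -1.02 (edgeR quasi-likelihood test, Benjamini-Hochberg adjusted p = 0.000113), which makes 2 members lower. Without IL-11+ replicate 1 it also passed, at -1.59 (edgeR quasi-likelihood test, Benjamini-Hochberg adjusted p = 4.86e-05). Without any one of the other 5 libraries the Benjamini-Hochberg adjusted p of *Thbs2* in the edgeR quasi-likelihood test was between 0.0696 and 0.204 on either filter, and with DESeq2 it was 0.347. The log2 ratio of *Thbs1* to *Thbs2* tags was 3.65 ± 0.30 in IL-11- and 4.88 ± 1.07 in IL-11+ (SD, n = 3, two-sided exact permutation p = 0.2). The groups overlapped, while between libraries of the same number the ratio was higher in IL-11+ in all 3 pairs, a pairing this permutation test does not use.

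*Postn* encodes periostin, which binds integrins and collagen and promotes collagen cross-linking. It had 561, 668 and 803 tags in the IL-11- libraries and 217, 383 and 411 tags in the IL-11+ libraries. The groups did not overlap, and the lowest value was in IL-11+ replicate 1, the library with the most *Tnc* and *Spp1*. The mean was 608.1 ± 64.5 and 336.9 ± 92.6 normalized CPM (n = 3, SD), and the log2 fold change was -0.85 (95% interval -1.26 to -0.44, edgeR quasi-likelihood test, Benjamini-Hochberg adjusted p = 0.00526), under the fold threshold.

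*Tgfbi* encodes a protein built, like periostin, from fasciclin domains and named for its induction by TGF-beta. It had 64, 88 and 85 tags in the IL-11- libraries and 35, 44 and 45 tags in the IL-11+ libraries. Both groups were compact and did not overlap. Its log2 fold change was -0.78 (95% interval -1.21 to -0.34), under the fold threshold, with a Benjamini-Hochberg adjusted p of 0.0146 in the edgeR quasi-likelihood test. The Benjamini-Hochberg adjusted p was over 0.05 in the edgeR quasi-likelihood test without IL-11- replicate 2 (0.0994) or IL-11+ replicate 1 (0.0613), and with DESeq2 (0.0536).

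*Fn1* encodes fibronectin, to which tenascin-C, thrombospondins and periostin bind. It had 548, 583 and 841 tags in the IL-11- libraries and 619, 637 and 568 tags in the IL-11+ libraries. The IL-11+ libraries lay within the range of the IL-11- libraries. Its log2 fold change was 0.06 (95% interval -0.29 to 0.42, edgeR quasi-likelihood test, Benjamini-Hochberg adjusted p = 0.86), and the sign turned with scaling by library size only (-0.03) and without IL-11- replicate 1 (-0.03).

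Levels of different genes were compared as normalized CPM per kilobase of the principal transcript, although whether 5′ tags scale with transcript length was not tested, and the order rests on this division by length. In IL-11- cells *Sparc* was the highest at 1077 ± 179 CPM per kilobase (SD, n = 3), followed by *Sparcl1* at 529.8 ± 35.6. *Thbs1*, *Postn*, *Tnc*, *Fn1*, *Tgfbi*, *Thbs2*, *Smoc2* and *Spp1* followed in this order, and among neighbours in it only *Tnc* and *Fn1*, and *Tgfbi* and *Thbs2*, overlapped between libraries. In IL-11+ cells *Sparc* again came first, at 1732 ± 219, and *Tnc* stood in second place at 383.5 ± 194 CPM per kilobase (SD, n = 3). *Tnc* ranged there from 250.6 to 606.6 and overlapped with *Thbs1* at 345.2 ± 79.0 and with *Sparcl1* at 300.8 ± 30.2. Its second place rested on its high value in replicate 1. *Thbs1* and *Sparcl1* overlapped as well. *Postn*, *Fn1*, *Spp1*, *Tgfbi*, *Thbs2* and *Smoc2* followed in IL-11+ cells, and each overlapped with its next neighbour except *Spp1* with *Tgfbi*.

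Across the 6 libraries, the 2 genes whose log2 normalized CPM was most like that of *Tnc* were *Pi15*, a secreted protein of the CAP family (Pearson r = 0.9989), and *Gapdh-ps15* (r = 0.9980). For *Spp1* they were *Pi15* (r = 0.9983) and *Tnc* itself (r = 0.9977). *Pi15* had 163, 120 and 133 tags in the IL-11- libraries and 1253, 537 and 505 tags in the IL-11+ libraries, with the same high replicate 1. *Dmp1*, an acidic phosphoprotein of mineralized matrix, was among those for *Sparcl1* (r = 0.9959). For *Tgfbi* they were *Htra1*, a secreted serine protease (r = 0.9971), and *Hoxa9*, a homeobox transcription factor (r = 0.9932). These values describe 6 libraries of 2 groups, so a difference between groups is part of each r.

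Many markers of pericytes, smooth muscle, interstitial cells and glia fell with the lower genes. Of the 12 markers of pericytes and smooth muscle, all tested, 9 fell, against 6.37% of all tested genes. The 9 include *Acta2*, *Myh11* and *Rgs5*, which was the most abundant. The pericyte markers *Kcnj8* (0.71) and *Abcc9* (0.67) went the other way and passed the adjusted p but not the fold threshold on the log2 scale. Together the 12 summed to 4797, 4902 and 5419 normalized CPM in the IL-11- libraries and to 1150, 1026 and 1086 in the IL-11+ libraries, where *Cnn1* had 0, 1 and 5 tags. All 3 markers of interstitial cells of Cajal (*Kit*, *Ano1* and *Etv1*, with *Ano1* the most abundant) fell, and their sum was 271.2, 167.7 and 257.8 in IL-11- and 21.2, 20.3 and 50.5 in IL-11+ libraries. Of 5 markers of enteric glia, 1 was tested and fell, *Gfap*, the most abundant, with sums of 25.8, 39.6 and 30.4 in IL-11- and 1.06, 0 and 0.954 in IL-11+ libraries, where *Sox10* and *S100b* were at 0. *Notch3*, *Cnn1*, *Kit* and *Gfap* passed the filter through their IL-11- libraries alone, so they could be tested only if they differed. The part of these markers in the lower *Smoc2*, *Sparcl1*, *Postn*, *Thbs2* and *Tgfbi* was not tested.

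The fibroblast markers were abundant in every library, and all 9 were tested. *Col3a1* and *Pdpn* rose, and 7 were not called, beside 3.44% higher and 6.37% lower among all tested genes. By the adjusted p alone, 4 were higher and 1 was lower, against 6.84% and 8.7% of all tested genes. The lower gene was *Lum* (lumican) at a log2 fold change of -0.64, and its groups did not overlap. The 9 markers summed to 22120, 22110 and 24640 normalized CPM in IL-11- and to 42230, 33960 and 30310 in IL-11+ libraries, and *Dcn* (decorin) was the most abundant. Their part in the higher *Tnc*, *Spp1* and *Sparc* was not tested. Endothelial, epithelial and mesothelial markers had few tags. Of 8 endothelial markers, 7 were in the table and 1 was tested, *Tek*, the most abundant, which fell. They summed to 45.8, 28.3 and 45.2 in IL-11- and 20.1, 14.2 and 12.4 in IL-11+ libraries, and *Pecam1* (CD31) was at 0 in all but 1 library. Of 8 epithelial markers, 7 were in the table and 0 were tested, led by *Krt8*, with sums of 3.82, 1.88 and 18.9 in IL-11- and 2.12, 3.05 and 4.77 in IL-11+ libraries, and *Epcam* had at most 1 tag in a library. Of 4 mesothelial markers 0 were tested, led by *Wt1*, with sums of 13.4, 4.71 and 15.6 in IL-11- and 0, 0 and 1.91 in IL-11+ libraries, where *Msln* was at 0.

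**Figure D2:**
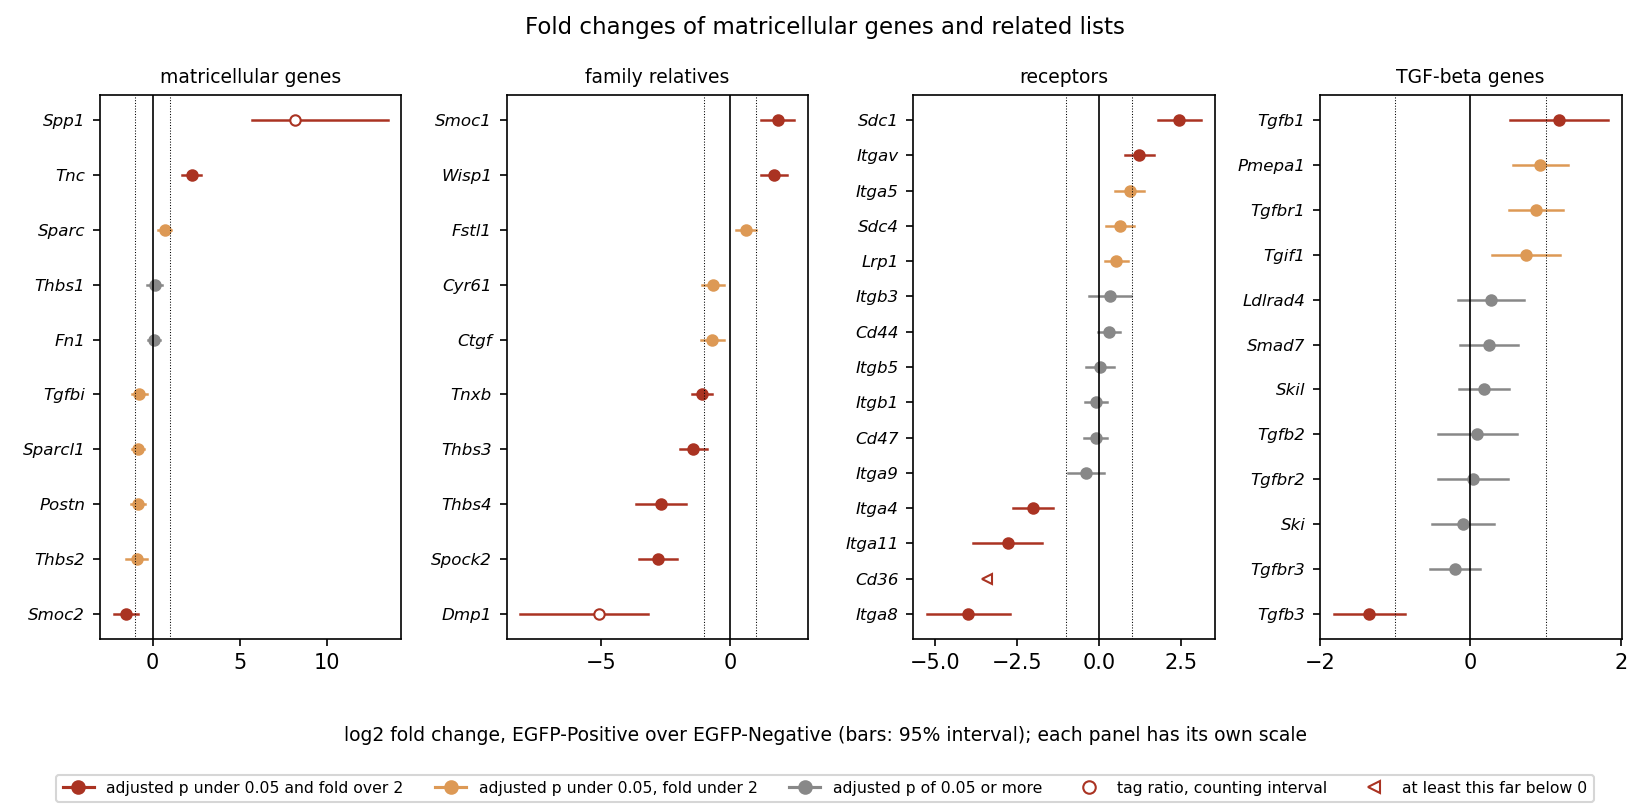
Log2 fold change, EGFP-Positive over EGFP-Negative (horizontal axis), of the tested matricellular genes, their family relatives, their receptors and TGF-beta genes, with 95% intervals from 3 libraries against 3 and a scale of its own in each panel. Red genes passed both thresholds, orange genes the adjusted p alone, grey genes neither. Dotted lines mark 2-fold changes, open circles are ratios of summed tags with a counting interval (*Spp1*, *Dmp1*), and the open triangle is a bound (*Cd36*). Matricellular genes lie on both sides of 0, from *Spp1* and *Tnc* to *Smoc2* at -1.54.

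Genes of the wider families of these proteins also went both ways. Of 20 listed relatives, 15 were in the table and 10 were tested, of which 2 were higher and 5 were lower. These counts stand beside 3.44% higher and 6.37% lower among all tested genes. Of the lower genes, *Thbs4*, *Spock2* and *Dmp1* passed the filter through their IL-11- libraries alone and could be tested only if they differed, so no median is given. *Smoc1*, the paralog of *Smoc2*, had 31, 38 and 22 tags in the IL-11- libraries and 130, 111 and 56 tags in the IL-11+ libraries. It rose while *Smoc2* fell, at a log2 fold change of 1.87 (95% interval 1.22 to 2.51, edgeR quasi-likelihood test, Benjamini-Hochberg adjusted p = 0.000281). *Wisp1* (CCN4), a CCN family protein, rose by a log2 fold change of 1.72 (SE 0.25). *Thbs3* and *Thbs4*, pentameric thrombospondins, fell, with log2 fold changes of -1.42 and -2.67. *Tnxb*, or tenascin-X, a tenascin of loose connective tissue, had 389, 338 and 470 tags in the IL-11- libraries and 138, 145 and 222 tags in the IL-11+ libraries. It went opposite to *Tnc*, at a log2 fold change of -1.09, and was just under the fold threshold without IL-11+ replicate 1 (-0.99) or 2 (-0.99). *Spock2*, a SPARC family proteoglycan, fell by 2.79 on the log2 scale. *Fstl1* (0.63), *Cyr61* (CCN1, -0.66) and *Ctgf* (CCN2, -0.68) passed the adjusted p but not the fold threshold on the log2 scale. None of the 3 kept an adjusted p under 0.05 throughout, since *Fstl1* lost it without either of 2 libraries, *Cyr61* without any of 4, and *Ctgf* without any of 5, with DESeq2 and with both of the other filters on low genes. *Tnn*, *Tnr*, *Spock3*, *Nov* and *Wisp2* were under the filter.

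*Spp1*, *Sparcl1* and *Dmp1* lie close together on chromosome 5 (GRCm38), a grouping looked at after their values were seen. Between the start of *Sparcl1* and the end of *Spp1*, over 361.9 kb, the annotation holds 6 protein-coding genes, of which 4 were in the table and 3 were tested. *Dmp1* had 30, 21 and 25 tags in the IL-11- libraries and 2, 0 and 0 tags in the IL-11+ libraries, a 34.0-fold lower ratio of summed tags with a counting interval of 9.10 to 285.9 (exact binomial). *Dspp*, a dentin matrix gene, had 3 tags in all, and *Ibsp* and *Mepe* were not analysed here. So *Spp1*, at one end of this stretch, was higher in IL-11+ cells, while *Dmp1*, within it, and *Sparcl1*, at the other end, were lower. *Smoc2* and *Thbs2* are neighbours too, with no other protein-coding gene wholly between them on chromosome 17, and both had lower means in IL-11+ cells.

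The receptors of these proteins include integrins, CD36, CD44, CD47 and syndecans. Of 18 listed genes, 17 were in the table and 15 were tested, of which 2 were higher and 4 were lower. Among all tested genes these shares were 3.44% and 6.37%. Of the lower receptors, *Itga8*, *Itga11* and *Cd36* likewise passed the filter through their IL-11- libraries alone, so they could be tested only if they differed. *Sdc1*, the heparan sulfate proteoglycan syndecan-1, had 216, 217 and 82 tags in the IL-11- libraries and 1008, 971 and 583 tags in the IL-11+ libraries. It rose at a log2 fold change of 2.45 (95% interval 1.79 to 3.12, edgeR quasi-likelihood test, Benjamini-Hochberg adjusted p = 2.07e-05). *Itgav*, the integrin αV chain that binds osteopontin, fibronectin and periostin, rose at a log2 fold change of 1.23, or 0.91 without IL-11+ replicate 1, which is under the fold threshold. *Itga4*, *Itga8* and *Itga11*, chains of further fibronectin, osteopontin, tenascin and collagen receptors, fell, with log2 fold changes of -2.02, -3.99 and -2.78. *Cd36*, the thrombospondin receptor, had 10, 15 and 11 tags in the IL-11- libraries and 0 in each IL-11+ library, at least 10.7-fold lower against a floor of 3 tags over the group. *Itga5* (0.94), *Sdc4* (0.65) and *Lrp1* (0.53) passed the adjusted p but not the fold threshold on the log2 scale, and *Itgb1*, *Itgb3*, *Itgb5*, *Itga9*, *Cd44* and *Cd47* passed neither. *Itga5* kept its adjusted p under 0.05 with each library left out, while *Sdc4* lost it without any of 5 libraries and *Lrp1* without any of 4 and with library size only. For *Sdc4* without IL-11- replicate 2 the adjusted p was 0.0548, but 0.0431 on the genes kept with all 6 libraries (edgeR quasi-likelihood test, Benjamini-Hochberg).

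TGF-beta is stored in the matrix in latent form and induces several matricellular genes in fibroblasts. All 12 listed ligands, receptors and early response genes were tested, of which 1 was higher and 1 was lower. Among all tested genes 3.44% were higher and 6.37% were lower. The median log2 fold change of the 12 was 0.22, against -0.01 for all tested genes. *Tgfb1*, a ligand, had 20, 15 and 21 tags in the IL-11- libraries and 52, 32 and 29 tags in the IL-11+ libraries. It rose 2.26-fold (edgeR quasi-likelihood test, Benjamini-Hochberg adjusted p = 0.013), and the adjusted p was 0.0762 without IL-11- replicate 2 and 0.1 without IL-11+ replicate 1. *Tgfb3*, another ligand, had 76, 76 and 94 tags in the IL-11- libraries and 31, 33 and 22 tags in the IL-11+ libraries. It fell by 1.35 on the log2 scale. Both ligands had groups that did not overlap, which held for 14.5% (higher) and 16.7% (lower) of all tested genes. The receptor *Tgfbr1* (0.88) and the response genes *Pmepa1* (0.93) and *Tgif1* (0.74) passed the adjusted p but not the fold threshold on the log2 scale. The response genes *Smad7*, *Skil*, *Ski* and *Ldlrad4*, the ligand *Tgfb2* and the receptors *Tgfbr2* and *Tgfbr3* passed neither. *Tgif1* lost its adjusted p under 0.05 without any of 4 libraries and with DESeq2.

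The promoters of *Spp1* and *Tnc* are shown because these genes rose together. RefSeq promoters (build GRCm38.p6) were found for 6 of the 10 genes, *Spp1*, *Tnc*, *Thbs2*, *Postn*, *Sparc* and *Tgfbi*. The windows run from 250 bases before to 50 bases after each transcript start, and both strands were searched. The AP-1 letters TGANTCA occurred in 7.81% of the 32851 promoters of the table, and the STAT letters TTCNNNGAA in 8.30%. The TEAD letters GGAATG occurred in 14.7% and the CArG box of serum response factor in 1.63%. The TATA box letters TATAAA occurred in 13.6%. The 6 genes have 9 such windows, so these shares per promoter are not shares per gene. In the 9 windows only TATAAA was found, in *Spp1*, *Tnc*, *Postn* and, on the opposite strand, *Thbs2*. The absence or presence of such letters says nothing about a factor. Relative to the start, the match lay at -211 in the first promoter of *Spp1*, at -126 in that of *Tnc* and at -26 in the second promoter of *Postn*. The 250 bases before the start follow, 5′ to 3′ on the strand of the gene, with the TATAAA match in capitals. *Spp1* promoter 1 is chr5:104434861-104435110 on the plus strand, *Tnc* promoter 1 is chr4:64047016-64047265 on the minus strand and *Postn* promoter 2 is chr3:54360857-54361106 on the plus strand, the last shown as the one with a match near the start.
*Spp1*: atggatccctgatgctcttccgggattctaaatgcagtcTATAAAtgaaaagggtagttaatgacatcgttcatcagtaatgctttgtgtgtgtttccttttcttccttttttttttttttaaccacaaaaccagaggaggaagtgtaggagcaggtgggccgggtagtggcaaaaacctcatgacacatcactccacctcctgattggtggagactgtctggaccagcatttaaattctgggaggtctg
*Tnc*: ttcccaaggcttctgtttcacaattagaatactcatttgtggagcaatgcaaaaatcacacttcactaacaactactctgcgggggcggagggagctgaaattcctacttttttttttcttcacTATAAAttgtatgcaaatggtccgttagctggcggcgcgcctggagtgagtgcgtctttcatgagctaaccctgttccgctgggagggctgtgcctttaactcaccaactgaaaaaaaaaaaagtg
*Postn*: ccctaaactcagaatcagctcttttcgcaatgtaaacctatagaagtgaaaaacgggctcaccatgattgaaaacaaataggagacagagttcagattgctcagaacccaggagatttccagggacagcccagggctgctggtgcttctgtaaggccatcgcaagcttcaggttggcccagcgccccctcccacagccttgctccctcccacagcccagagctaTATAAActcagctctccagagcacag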

How the data were processed

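The deposited values are 5′ tag counts per gene symbol, without normalization, in 1 table per library. By the methods, the authors trimmed reads (Cutadapt 1.18), aligned them in one orientation to mm10 RefSeq RNA (Bowtie2 2.2.5), counted tags per gene and compared the groups with TCC and edgeR in R 3.5.1. How tags matching more than one gene were treated is not given in the sources used here.

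Here the counts were compared in R 4.3.3 with edgeR 4.0.16 (TMM, glmQLFit and glmQLFTest, Benjamini-Hochberg adjustment over 9334 genes), without a replicate block and with the thresholds of the methods. As printed, the methods' filter leaves out genes with 10 or more tags, and it was read as keeping them. The fit was tested on simulated counts. The smallest and largest libraries hold 1022851 and 1169817 tags, and the floor of 3 tags lies at 2.46 to 3.18 normalized CPM. Alternatives were RLE, iterative TMM as in TCC, library size only, DESeq2 1.42.0, the exact test of edgeR, other filters, the replicate block, the adjusted p alone and each library left out in turn. The fit without each library on the genes kept with all 6 was chosen after seeing the data.

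Replicate numbers come from the sample titles. Libraries with the same number deviated together from their group means over 5064 genes averaging 30 or more tags (r = 0.232, 0.22 and 0.27 across genes, which are not independent replicates), so the numbers were taken to pair the libraries. The members, gene lists and markers were chosen with earlier results of these data known, and some genes of the lists are not reported here. The text names all members, then called genes of the lists, those needed to state small counts, and the 2 tested genes most like a member. The genes between *Sparcl1* and *Spp1* and between *Smoc2* and *Thbs2* were picked after looking at their values. Positions and transcript lengths are from GENCODE mouse release 21 (GRCm38).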

Additional observations from a re-analysis of the deposited data

How the results depend on the processing

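The log2 fold changes of *Spp1*, *Tnc*, *Thbs2*, *Postn*, *Sparc*, *Sparcl1*, *Tgfbi* and *Smoc2* kept their direction under every alternative that gave a value. The count of members lower in IL-11+ cells was 2 with the replicate block and 2 with library size only, in both through *Thbs2*. Among all tested genes 648 were lower with the block and 660 with library size only. With the adjusted p alone 5 members were lower and 3 higher, against 812 lower and 638 higher genes among all tested. The block changed no other call of a member. *Fn1* was at -0.026 with library size only.

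With each library left out, the fits on the genes kept with all 6 libraries were counted as well. All higher genes then numbered 251 to 329 and all lower genes 341 to 580, with members higher 1 to 2 and members lower 1 to 2. With the filter on 5 libraries fewer genes were tested, and *Spp1* had no value without an IL-11+ library. *Thbs1* ranged from -0.076 to 0.344 and *Fn1* from -0.032 to 0.197. The cause of these changes of sign was not tested. The log2 difference of the *Sparc* to *Sparcl1* ratio stayed between 1.32 and 1.64 and that of *Thbs1* to *Thbs2* between 0.71 and 1.78. Of 15 called list genes, 3 (*Tgfb1*, *Itgav* and *Tnxb*) lost their call when a library was left out, and 6 (*Thbs4*, *Spock2*, *Dmp1*, *Itga8*, *Itga11* and *Cd36*) had no value on the filter of 5 libraries without an IL-11- library. Of 9 list genes with the adjusted p alone, 6 lost it with a library left out, and *Itga5* and *Pmepa1* gained a call. Markers were not refitted in this way.

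At 1022851 to 1169817 tags per library, a gene with few tags, such as *Smoc2* or *Tgfbi*, is measured less precisely than *Sparc*, and 3 libraries a group limit every estimate. Tags came from RNA alone, so nothing here measures protein in the matrix.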
